A study of Mus musculus with 11 samples.

Results

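The untreated BV2 microglial cells of the study came from both of its experiments, and 6 of the 11 samples were untreated: 3 labelled ControlA, the controls of the experiment with the nApoE4 fragment, and 3 labelled ControlB, the controls of the experiment with the nApoE3 fragment. The members were taken by these titles alone, with every gene of the count files, and no measured value was used to choose them. BV2 is a line of mouse microglia made permanent with the v-raf and v-myc oncogenes, and the labels give its strain as C57BL/6. All 6 samples were grown in RPMI medium with 10% fetal bovine serum at 37 °C and 6% CO2, were harvested after 5 h without a fragment, and were measured by RNA sequencing of total RNA as counts of reads on genes. The study's methods state that controls received conditioned media, while the labels name a PBS vehicle, and which of these was added to either group is not known. No genotype or fragment separates ControlA from ControlB, while whether the vehicle differed between them is not known. The groups differ by experiment and, by the names of the deposited libraries, by sequencing lane, so experiment, culture, lane and group cannot be told apart in any value below. The study describes its measurements as independent trials without stating that the replicates sequenced were separate cultures, so p-values measure the spread between these samples, which may be technical.

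Microglia are the resident macrophages of the brain and depend on signalling through the receptor of colony stimulating factor 1 and on the transcription factor PU.1. Cultured lines such as BV2 keep the macrophage programme and lose much of the expression that marks microglia in the brain. When oxygen at the cell is scarce, the prolyl hydroxylases that mark hypoxia inducible factors for destruction slow down, and the factors then switch on genes for glucose uptake, glycolysis, blood vessel growth and the removal of mitochondria. Cells that divide need ribosomes, nucleotides and new DNA, and proteins that fold in the endoplasmic reticulum or the cytosol are served by chaperones, which rise when folding is under strain.

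The files listed 36529 genes, of which 24400 had at least 1 count in an untreated sample and 14249 had enough counts to be tested. Counts on genes numbered 39732710 to 44162511 per sample in ControlA and 55809688 to 69768666 in ControlB, so that 3 counts, taken as the floor, equalled 0.0430 to 0.0755 counts per 1000000 counts on genes (CPM). The CPM of genes given below were also scaled by a normalization factor for each sample, from 0.982 to 1.038. Correlations of log2 CPM over the genes tested were 0.992 to 0.995 within ControlA, 0.996 within ControlB and 0.958 to 0.960 between the groups. The biological coefficient of variation was 0.103 within ControlA and 0.0245 within ControlB. ControlA replicate 2 stood apart from the other ControlA samples, and its deviation from the ControlA mean fell with the length of the gene (Spearman's rho across 13227 genes = -0.44), while that of replicate 3 rose with it (0.43). A listed 0 was not read as absence, since *B2m*, a subunit of class I MHC made by nearly all cells with a nucleus, was listed at 0 in all 6 samples.

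The most abundant messages of the untreated cells were those of mitochondria, iron storage, translation, lysosomes and secretion. Levels are compared between genes as CPM per kilobase of exon, given as the mean ± SD over the 6 samples. Apart from mitochondrial transcripts, the highest levels were those of *Ftl1* (3835 ± 997) and *Fth1* (1498 ± 170.2), the light and heavy chains of the iron store ferritin, *Eef1a1* (3024 ± 848), a translation elongation factor, and ribosomal protein genes such as *Rplp1* (2702 ± 1220.1). *Spp1* (1370.5 ± 259), encoding the secreted protein osteopontin, and the lysosomal proteases *Ctsd* (1285 ± 169.7) and *Ctsz* (1197 ± 148) were also among the first 20. *Apoe* itself, the apolipoprotein of the treated experiments, stood at 1021 ± 158, *Lpl*, lipoprotein lipase, at 305 ± 43.8 and *Gpnmb*, a glycoprotein of lipid-laden macrophages, at 884 ± 388. The energy genes *Aldoa* (715 ± 183), *Ldha* (624 ± 180.1), *Pkm* (589 ± 183) and *Pgk1* (588 ± 273) were of the order of these secreted and lysosomal genes.

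The label of the cells was borne out for the macrophage list, while several markers of microglia in the brain were low or listed at 0. *Csf1r*, the growth factor receptor of the lineage, had 813, 842 and 833 CPM in ControlA and 795, 776 and 809.8 CPM in ControlB. *Spi1*, encoding PU.1, had 271, 300.1 and 263 CPM in ControlA and 216, 213 and 228 CPM in ControlB. *Cd68*, *Adgre1* (F4/80), *Ptprc* (CD45), *Lyz2* and *Tyrobp* were also among the abundant genes, each above 100 CPM in every sample. Of the 38 genes of the macrophage list 35 could be tested, against 20 of 28 on the homeostatic microglia list. *P2ry12*, *P2ry13* and *Gpr34*, purinergic and lipid receptors of resting microglia, were listed at 0 in all 6 samples, which is not read as absence, and *Sall1*, a transcription factor of microglial identity, had a count in 1 sample alone. *Tmem119* stood at 2.92 ± 0.210 CPM in ControlA and 8.78 ± 0.558 CPM in ControlB and *Cx3cr1*, the fractalkine receptor, at 0.2498 ± 0.108 CPM in ControlA and 0.194 ± 0.0464 CPM in ControlB. Summed over each list, markers of neurons, astrocytes, lymphocytes and granulocytes gave at most 2.92 CPM in any sample. The markers of other cells above 10 CPM were *Kdr*, the endothelial VEGF receptor, with 180.3, 154 and 182 CPM in ControlA and 66.9, 64.6 and 64.4 CPM in ControlB, *Cnp*, a gene of myelinating cells, with 17.9, 20.1 and 17.2 CPM in ControlA and 17.9, 19.1 and 18.8 CPM in ControlB, and *Mbp*, a myelin gene, with 10.9, 9.37 and 11.8 CPM in ControlA and 22.1, 23.7 and 23.4 CPM in ControlB. The part of other cell types in the differences below was not tested, and in bulk samples fewer cells of a type and less RNA per cell cannot be told apart.

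The comparison of ControlB with ControlA asked whether the untreated samples were alike in both experiments, with lane and culture inseparable from experiment. They were not: 9879 of the 14249 genes tested (69.3%) passed an adjusted p of 0.05 in edgeR's quasi-likelihood test with Benjamini-Hochberg adjustment, 4905 (34.4%) higher and 4974 (34.9%) lower in ControlB, and over all of them the log2 fold changes had a median of -0.01. A fold change above 2 was reached by 770 higher (5.4%) and 1781 lower (12.5%) genes, and the values of the 3 and 3 samples did not overlap for 10557 genes (74.1%). The first principal component held 85.4% of the variance and separated the groups. Scaling by the upper quartile of counts shifted the median of all genes to -0.11 and the calls to 4061 higher and 5888 lower. Because most genes were called, the lists below are described by the balance of their higher and lower calls and by their median, beside these shares for all genes. A log2 fold change is ControlB over ControlA throughout, and a value in brackets after a gene is its log2 fold change, with the standard error after ±.

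Genes switched on by low oxygen were lower in ControlB. Of 37 hypoxia targets tested, 4 were called higher and 29 lower in ControlB, and the median log2 fold change was -0.65, with 11 more than 2-fold lower. *Ankrd37*, an ankyrin repeat gene that responds to hypoxia inducible factor 1, had 89.8, 104 and 83.1 CPM in ControlA and 6.46, 6.99 and 7.26 CPM in ControlB (log2 fold change -3.74 ± 0.10, adjusted p = 1.46e-07). *Bnip3*, a receptor for the removal of mitochondria, had 391, 459.6 and 349 CPM in ControlA and 65.6, 67.3 and 79.4 CPM in ControlB (log2 fold change -2.50 ± 0.12, adjusted p = 1.15e-06). *Slc2a1*, the glucose transporter GLUT1, had 245, 255 and 225 CPM in ControlA and 51.3, 52.3 and 58.8 CPM in ControlB (log2 fold change -2.16 ± 0.07, adjusted p = 3.22e-07). In all 3 genes the lowest ControlA sample lay several times above the highest ControlB sample.

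The same direction held for *Ndrg1*, a stress gene of the N-myc downstream group, with 236, 248 and 216 CPM in ControlA and 45.99, 45.5 and 46.2 CPM in ControlB (log2 fold change -2.34 ± 0.06), and for *Hilpda*, which limits the breakdown of stored lipid, with 40.6, 47.8 and 37.1 CPM in ControlA and 9.31, 10.1 and 11.4 CPM in ControlB (log2 fold change -2.03 ± 0.11). *Pdk1*, the kinase that inhibits the pyruvate dehydrogenase complex, differed less, with 304, 333 and 308 CPM in ControlA and 172, 174 and 174 CPM in ControlB (log2 fold change -0.86 ± 0.05, adjusted p = 2.68e-06), as did *Vegfa*, the vascular growth factor, with 108, 107 and 112 CPM in ControlA and 69.9, 66.8 and 71.5 CPM in ControlB (log2 fold change -0.65 ± 0.05, adjusted p = 7.17e-06). Groups did not overlap for any of these genes, which was also so for 74.1% of all genes tested. The 4 hypoxia targets called higher, named after their values were seen, were *Pfkfb3* (0.28), *Plin2* (0.72), *Car12* (0.78) and *P4ha2* (1.29), the last with means of 0.235 and 0.588 CPM.

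The transcripts of the oxygen-sensing machinery did not all move with its targets. *Hif1a*, the oxygen-regulated subunit that is controlled mainly as a protein, was higher in ControlB, with 32.7, 28.0 and 34.4 CPM in ControlA and 46.5, 47.8 and 48.9 CPM in ControlB (log2 fold change 0.59 ± 0.08, adjusted p = 0.000185). *Epas1*, encoding its relative HIF-2 alpha, was higher too (log2 fold change 0.55 ± 0.09), and so was *Hif1an*, the asparaginyl hydroxylase that restrains both (log2 fold change 0.31 ± 0.06). The prolyl hydroxylases that are themselves targets were lower: *Egln1* had 217, 235 and 203 CPM in ControlA and 120.5, 120.1 and 124 CPM in ControlB (log2 fold change -0.84 ± 0.06, adjusted p = 7.48e-06), and *Egln3*, a gene of low level, had 5.19, 5.40 and 4.23 CPM in ControlA and 0.188, 0.349 and 0.292 CPM in ControlB (log2 fold change -4.16 ± 0.22, adjusted p = 1.79e-06). *Vhl*, the ubiquitin ligase subunit that removes hydroxylated factors, was lower by a smaller amount (log2 fold change -0.49 ± 0.06). Over the 8 factors and sensors tested, 3 were called higher and 3 lower in ControlB, and the median log2 fold change was -0.06. Both prolyl hydroxylases are also counted among the hypoxia targets.

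The promoters of *Ankrd37*, *Bnip3* and the glycolytic gene *Ldha* are shown because all 3 genes were lower in ControlB and carry the core to which hypoxia inducible factors bind. Each sequence is the 250 bases before the transcript start in RefSeq, build GRCm38.p6, written 5′ to 3′ on the strand of the gene, with every match to ACGTG or GCGTG on either strand in capitals. Overlapping matches run together.
Ankrd37, chr8:45999851-46000100, minus strand: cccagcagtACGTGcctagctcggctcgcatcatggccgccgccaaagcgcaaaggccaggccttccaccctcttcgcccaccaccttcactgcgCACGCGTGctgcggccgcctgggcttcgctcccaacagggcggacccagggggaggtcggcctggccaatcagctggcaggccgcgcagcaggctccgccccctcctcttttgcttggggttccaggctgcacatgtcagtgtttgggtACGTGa
Bnip3, chr7:138909507-138909756, minus strand: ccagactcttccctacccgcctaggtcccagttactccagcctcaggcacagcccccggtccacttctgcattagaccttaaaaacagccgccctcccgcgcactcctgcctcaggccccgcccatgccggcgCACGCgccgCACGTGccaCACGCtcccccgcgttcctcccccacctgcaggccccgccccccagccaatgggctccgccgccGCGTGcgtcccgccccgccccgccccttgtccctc
Ldha, chr7:46845554-46845803, plus strand: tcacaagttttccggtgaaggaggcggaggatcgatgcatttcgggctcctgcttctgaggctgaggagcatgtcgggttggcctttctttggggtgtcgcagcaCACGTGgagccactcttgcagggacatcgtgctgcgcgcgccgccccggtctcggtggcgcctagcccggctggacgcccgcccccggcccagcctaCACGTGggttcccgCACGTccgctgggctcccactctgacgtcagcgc

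The windows of *Ankrd37*, *Bnip3* and *Ldha* held 4, 5 and 5 matches. The core is short, and 38.6% of all 32851 promoter windows held it at least once. Of the 31 hypoxia targets tested that had a window, 28 held the core in at least 1 of their windows, against 59.2% of the 10685 genes tested that had one. Lists that were higher in ControlB also held it often, with 15 of 19 genes of the unfolded protein response and 9 of 11 heat shock genes. A match describes letters and is not evidence of binding.

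Glycolysis was lower in ControlB along almost its whole length. Of 19 genes tested, 1 was called higher and 18 were called lower in ControlB, and the median log2 fold change was -0.83. The summed level of the list was 15451 to 17965 CPM in ControlA and 8947 to 9318 CPM in ControlB. *Pgk1*, phosphoglycerate kinase, had 1727, 2142 and 1715 CPM in ControlA and 778, 753 and 800.1 CPM in ControlB (log2 fold change -1.26 ± 0.09, adjusted p = 7.15e-06). *Pkm*, pyruvate kinase, had 3618, 3999.8 and 3708 CPM in ControlA and 2103, 2105 and 2148 CPM in ControlB (log2 fold change -0.83 ± 0.05, adjusted p = 3.68e-06). *Ldha*, which turns pyruvate into lactate, had 2459.7, 2915 and 2378 CPM in ControlA and 1546, 1518 and 1582 CPM in ControlB (log2 fold change -0.74 ± 0.08, adjusted p = 6.14e-05). None of these groups overlapped, which was also so for 74.1% of all genes tested. The ControlB samples lay much closer to each other than the ControlA samples did.

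*Pgam1* (-1.15 ± 0.06), *Aldoc* (-1.31 ± 0.08), *Aldoa* (-0.64 ± 0.08) and the lactate exporter *Slc16a3* (-1.17 ± 0.05) were lower as well. *Hk2*, the inducible hexokinase at the entry of the pathway, differed least of the genes named, with 170.0, 167 and 174 CPM in ControlA and 138, 133 and 143 CPM in ControlB (log2 fold change -0.31 ± 0.05, adjusted p = 0.000467). The 1 gene called higher, named after its value was seen, was *Slc16a1* (0.78 ± 0.04), a transporter that carries lactate in either direction. *Gapdh* had only 232, 215 and 248 CPM in ControlA and 25.5, 25.7 and 31.0 CPM in ControlB, far under its neighbours in the pathway, and its difference (-3.08 ± 0.09) is uncertain, because reads shared with its many near-identical copies in the genome may not have been counted on it. With the median of genes of like length and GC content subtracted, the median of the glycolysis list was -0.63 and that of the hypoxia list -0.65.

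**Figure D1:**
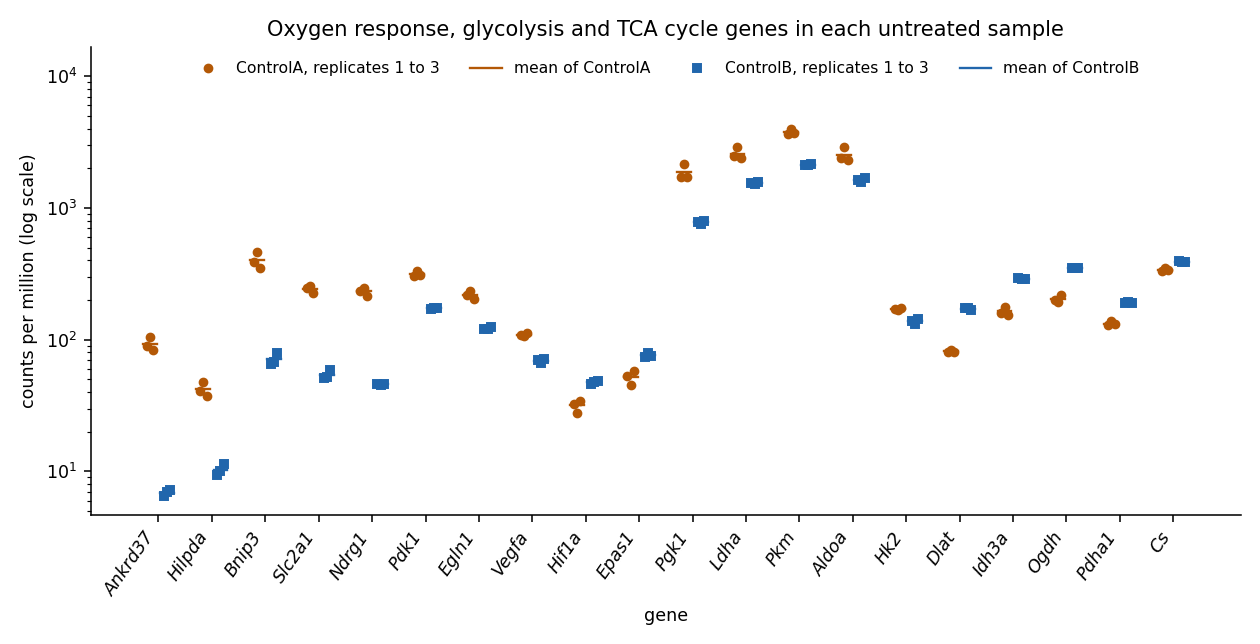
CPM on a log scale for 20 genes of the oxygen response, glycolysis and the tricarboxylic acid (TCA) cycle in each untreated sample, with circles for ControlA, squares for ControlB and a line at each group mean. *Ankrd37*, *Hilpda*, *Bnip3*, *Slc2a1* and *Ndrg1* lie well apart and higher in ControlA, while *Hif1a*, *Epas1* and the TCA cycle genes from *Dlat* to *Cs* lie higher in ControlB.

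The mitochondrial side of fuel use leaned the other way. Of 21 genes of the TCA cycle and its entry, 11 were called higher and 3 lower in ControlB, and the median log2 fold change was 0.21. *Dlat*, a core subunit of the pyruvate dehydrogenase complex that *Pdk1* inhibits, had 80.3, 84.1 and 80.6 CPM in ControlA and 174, 174 and 167 CPM in ControlB (log2 fold change 1.07 ± 0.04, adjusted p = 6.94e-07). *Pdha1*, the subunit that *Pdk1* phosphorylates, had 128, 139 and 130.3 CPM in ControlA and 191, 192 and 191 CPM in ControlB (log2 fold change 0.53 ± 0.05, adjusted p = 2.05e-05). *Idh3a* (0.83 ± 0.06), *Ogdh* (0.80 ± 0.05), *Dld* (0.79 ± 0.06) and *Fh1* (0.53 ± 0.07) were also higher, so that *Pdk1* and its substrate differed in opposite directions. *Cs*, citrate synthase, differed little (0.21 ± 0.04). The 3 genes called lower were *Mdh2* (-0.30), *Idh3g* (-0.22) and *Idh2* (-0.16).

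Respiratory chain genes did not move as 1 group. Of 69 nuclear genes of oxidative phosphorylation, 15 were called higher and 29 lower in ControlB, and the median log2 fold change was -0.13, which came to 0 with length and GC content subtracted. Within complex I, *Ndufs1* (0.94 ± 0.04), *Ndufb3* (0.82 ± 0.09) and *Ndufv2* (0.76 ± 0.09) were higher and *Ndufs7* (-0.76 ± 0.09) lower, while *Atp5g2* of the ATP synthase (-1.44 ± 0.08) and *Cox8a* of complex IV (-1.10 ± 0.08) were lower. Of the 13 messages of the mitochondrial genome, 7 were called higher and 3 lower in ControlB, and the median log2 fold change was 0.44: *ND2* (0.76 ± 0.04), *ND5* (0.56 ± 0.06) and *ND6* (0.71 ± 0.06) were higher, *COX1* was lower (-0.30 ± 0.04), and *CYTB* (-0.05 ± 0.04) and *ND1* (-0.06 ± 0.04) did not pass the test. The summed level of the 13 messages overlapped between the groups, at 23113 to 23457 CPM in ControlA and 23200 to 24040 CPM in ControlB. Only 8 of them had a mean of at least 10 CPM in either group. *COX2*, *COX3* and *ATP6*, which the files list far below *COX1*, have near-identical copies in the nuclear genome and are uncertain.

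Lipid genes were divided. Of 22 genes of cholesterol synthesis, 5 were called higher and 10 lower in ControlB, and the median log2 fold change was -0.02. *Cyp51* (0.83 ± 0.05) and *Dhcr7* (0.64 ± 0.04) were higher. *Srebf2* (-0.46 ± 0.05) and *Srebf1* (-0.60 ± 0.04), the transcription factors of sterol and fatty acid synthesis, were lower. *Elovl6*, a fatty acid elongase, was higher (1.29 ± 0.07), as were *Cpt1a*, which admits fatty acids to mitochondria (0.90 ± 0.06), and *Nr1h3*, the sterol sensor LXR alpha (1.11 ± 0.05). The LXR targets *Abca1* (0.18 ± 0.11) and *Abcg1* (-0.02 ± 0.05) did not pass the test. *Apoe* had 1821, 2083 and 1776 CPM in ControlA and 2471, 2399.8 and 2552 CPM in ControlB (log2 fold change 0.39 ± 0.07, adjusted p = 0.00107). Fatty acid oxidation held 8 higher and 8 lower genes of 23, fatty acid synthesis 5 and 3 of 15, the LXR targets 6 and 5 of 15 and the pentose phosphate pathway 3 and 3 of 7.

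Genes that dividing cells use to build ribosomes and copy DNA were higher in ControlB. Of 40 ribosome biogenesis genes, 30 were called higher and 5 lower in ControlB, and the median log2 fold change was 0.37. *Ncl*, the nucleolar protein nucleolin, had 2462, 2532 and 2397 CPM in ControlA and 4366, 4321 and 4265 CPM in ControlB (log2 fold change 0.81 ± 0.04, adjusted p = 2.00e-06), and *Npm1*, nucleophosmin, had 1675, 1914 and 1616 CPM in ControlA and 2752, 2789 and 2793 CPM in ControlB (log2 fold change 0.68 ± 0.07, adjusted p = 4.17e-05). *Rrs1* (0.93 ± 0.05), *Heatr1* (0.90 ± 0.07), *Nop58* (0.89 ± 0.05) and *Polr1c*, a subunit of RNA polymerases I and III (0.88 ± 0.06), followed. Of 22 nucleotide synthesis genes, 17 were called higher and 3 lower in ControlB, and the median log2 fold change was 0.40, with *Ppat*, the committed step of purine synthesis, at 102, 105 and 108 CPM in ControlA and 213, 213 and 207 CPM in ControlB (log2 fold change 1.00 ± 0.04, adjusted p = 8.67e-07) and *Tyms*, thymidylate synthase, at 0.70 ± 0.05.

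Of 41 DNA replication genes, 31 were called higher and 2 lower in ControlB, and the median log2 fold change was 0.31. *Gins1*, part of the replicative helicase, had 40.8, 46.2 and 39.6 CPM in ControlA and 100, 103 and 102 CPM in ControlB (log2 fold change 1.27 ± 0.06, adjusted p = 1.44e-06), and *Chaf1a* (1.03 ± 0.05), *Pola1* (1.00 ± 0.06) and *Mcm2* (0.38 ± 0.04) were higher. Of 46 mitosis genes, 32 were called higher and 2 lower in ControlB, and the median log2 fold change was 0.43. *Tpx2*, a spindle assembly factor, had 251, 239 and 243 CPM in ControlA and 464, 470.3 and 462 CPM in ControlB (log2 fold change 0.93 ± 0.04, adjusted p = 1.07e-06), and *Smc2* of condensin was higher by 1.00 ± 0.05. *Mki67*, the proliferation marker Ki-67, had 829, 577 and 825 CPM in ControlA and 1032, 1066 and 1041 CPM in ControlB (log2 fold change 0.49 ± 0.13, adjusted p = 0.00842), with ControlA replicate 2 the lowest. *Cdk1*, the kinase of mitotic entry, went the other way with 182, 191 and 160.5 CPM in ControlA and 107, 108 and 113 CPM in ControlB (log2 fold change -0.70 ± 0.07, adjusted p = 3.68e-05). *Pcna* differed by 0.22 ± 0.08, a call that was lost when ControlA replicate 1 or 3 or any ControlB replicate was left out.

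Regulators of G1 had no common direction. *Cdkn1a*, the kinase inhibitor p21, had 55.1, 55.4 and 49.4 CPM in ControlA and 23.3, 23.4 and 25.6 CPM in ControlB (log2 fold change -1.14 ± 0.06, adjusted p = 2.45e-06), and *Cdkn2a*, which encodes p16 and p19ARF, had 93.2, 105 and 82.3 CPM in ControlA and 43.5, 42.2 and 41.1 CPM in ControlB (log2 fold change -1.15 ± 0.09, adjusted p = 9.66e-06). The other inhibitors of cyclin-dependent kinases that were tested, some named after their values were seen, were *Cdkn1b* (-0.35 ± 0.05), *Cdkn2d* (-0.28 ± 0.08) and *Cdkn1c* (-2.63 ± 0.23), which were lower, and *Cdkn2c* (0.49 ± 0.05), which was higher. *Mxd4*, an antagonist of MYC, was lower (-1.50 ± 0.08). *Ccne1* (0.59 ± 0.06) and *Ccne2* (0.59 ± 0.06) were higher, *Ccnd2* was lower (-0.40 ± 0.07), and *Ccnd1* (0.05 ± 0.05) and *Ccnd3* (0.13 ± 0.05) did not pass the test. Over the 25 G1 regulators, 7 were called higher and 12 lower in ControlB, and the median log2 fold change was -0.02. The cells' own *Myc* was low in both groups, at 0.735 ± 0.123 CPM in ControlA and 0.421 ± 0.0966 CPM in ControlB, while the oncogene of the line is a viral one. The p53 targets held 6 higher and 9 lower genes of 19, the lower ones including *Btg2* (-1.75 ± 0.09) and *Plk2* (-1.46 ± 0.05).

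The genes of the ribosome's own proteins were lower in ControlB, against those that assemble it. Of 79 cytosolic ribosomal protein genes, 3 were called higher and 65 lower in ControlB, and the median log2 fold change was -0.70. Their summed level was 64394 to 86633 CPM in ControlA and 47065 to 49071 CPM in ControlB, with ControlA replicate 2 at the top of its range. *Rpl29* had 390.3, 442 and 321 CPM in ControlA and 102, 101 and 108 CPM in ControlB (log2 fold change -1.89 ± 0.11, adjusted p = 2.80e-06), *Rps29* had 1023, 1273 and 960.3 CPM in ControlA and 389.9, 375 and 416 CPM in ControlB (log2 fold change -1.46 ± 0.10, adjusted p = 7.48e-06), and *Fau* was lower by a similar amount (-1.51 ± 0.12). The 3 called higher, named after their values were seen, were *Rps14* (0.54), *Rps21* (0.23) and *Rps28* (0.69). These are short genes with many processed copies, and their values may be split among them. The list median was -0.62 with length and GC content subtracted, although *Rpl8* and *Rps15* turned from lower (-0.37 and -0.32) to higher (0.14 and 0.18) when offsets for length and GC content entered the fit.

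Chaperones of the endoplasmic reticulum and of the cytosol were higher in ControlB. Of 22 genes of the unfolded protein response, 13 were called higher and 7 lower in ControlB, and the median log2 fold change was 0.79, with 7 over 2-fold higher. *Hsp90b1*, the chaperone GRP94, had 573, 639 and 566 CPM in ControlA and 1687, 1710.3 and 1685 CPM in ControlB (log2 fold change 1.52 ± 0.06, adjusted p = 4.95e-07). *Hspa5*, the chaperone BiP, had 420.4, 455 and 419 CPM in ControlA and 714, 729 and 758 CPM in ControlB (log2 fold change 0.77 ± 0.05, adjusted p = 5.88e-06). *Manf*, a secreted protein of stressed endoplasmic reticulum, had 81.8, 90.2 and 73.7 CPM in ControlA and 201, 203 and 203 CPM in ControlB (log2 fold change 1.30 ± 0.07, adjusted p = 2.24e-06). The 13 higher genes encode chaperones, protein disulfide isomerases and their partners, and *Canx* (1.09 ± 0.04), *Hyou1* (1.13 ± 0.04), *Dnajb11* (1.23 ± 0.07) and *Creld2* (1.12 ± 0.07) were among them. The 7 lower ones, chosen after their values were seen where the rule had not named them, were the transcription factors *Atf6* (-0.21) and *Xbp1* (-0.18) and genes of protein removal, *Edem1* (-0.72), *Syvn1* (-0.65), *Herpud1* (-0.48), *Sel1l* (-0.15) and *Derl3* (-0.97). The call for *Xbp1* was lost in DESeq2, with the length and GC offsets and when ControlA replicate 1 or any ControlB replicate was left out.

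The promoter of *Creld2*, a chaperone-associated gene of the endoplasmic reticulum, is shown for the element found in 9 of the 19 genes of this list with a window, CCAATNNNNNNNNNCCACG, which was searched on both strands of the same 250 bases and is in capitals where it was found.
Creld2, chr15:88819396-88819645, plus strand: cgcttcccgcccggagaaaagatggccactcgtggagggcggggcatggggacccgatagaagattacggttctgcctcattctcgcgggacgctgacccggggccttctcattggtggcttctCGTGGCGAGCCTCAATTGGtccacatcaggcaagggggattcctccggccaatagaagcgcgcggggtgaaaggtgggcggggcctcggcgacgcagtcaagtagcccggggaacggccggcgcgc

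This element stood in 37 of all 32851 windows (0.113%) and in 17 of the 10685 tested genes that had a window. Of the 19 genes of the unfolded protein response with a window, 9 held it, 7 of the 11 that were higher in ControlB and 2 of the 6 that were lower. It was therefore present in genes of either direction.

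Of 15 heat shock genes tested, 12 were called higher and 2 lower in ControlB, and the median log2 fold change was 0.68. *Hsph1*, the chaperone HSP105, had 106, 116 and 109 CPM in ControlA and 453, 454 and 466 CPM in ControlB (log2 fold change 2.05 ± 0.05, adjusted p = 1.19e-07). *Hspe1*, the mitochondrial chaperonin partner HSP10, had 212, 239.9 and 192 CPM in ControlA and 529, 537 and 533 CPM in ControlB (log2 fold change 1.31 ± 0.08, adjusted p = 3.26e-06), and *Hsp90ab1*, a constitutive HSP90, had 2437, 2612 and 2411 CPM in ControlA and 3872, 3862 and 3845 CPM in ControlB (log2 fold change 0.63 ± 0.05, adjusted p = 9.52e-06). *Dnaja1* (1.24 ± 0.06), *Hspa4* (1.18 ± 0.05) and *Stip1* (1.00 ± 0.05) were higher as well, and their regulator *Hsf1* differed by 0.38 ± 0.04. *Dnajb4* (-0.78) and *Bag3* (-0.29) were lower. The paired heat shock units GAANNTTC or TTCNNGAA, searched on both strands, stood in 5 of 11 of these genes with a window and in 12.7% of tested genes with a window.

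The oxidative and amino acid responses were mixed. *Gclm*, a subunit of the enzyme that limits glutathione synthesis, had 51.1, 57.2 and 52.0 CPM in ControlA and 178, 181 and 182 CPM in ControlB (log2 fold change 1.75 ± 0.05, adjusted p = 2.46e-07), and its partner *Gclc* (1.15 ± 0.05) and *Txnrd1* (1.00 ± 0.04) were higher. *Hmox1*, heme oxygenase, was lower (-0.55 ± 0.08), as were *Gpx4* (-1.15 ± 0.10) and *Osgin1* (-1.88 ± 0.08), and over the 22 NRF2 genes 10 were called higher and 6 lower in ControlB, and the median log2 fold change was 0.05, which turned to -0.05 with upper quartile scaling. Of 37 genes of the ATF4 response, 17 were called higher and 10 lower in ControlB, and the median log2 fold change was 0.15, with *Mthfd2* of mitochondrial folate metabolism (1.08 ± 0.05) and the cystine transporter *Slc7a11* (0.96 ± 0.06) higher, *Trib3* (-0.67 ± 0.09) lower, and *Asns* (0.07 ± 0.07) and *Ddit3* (0.15 ± 0.07) not past the test.

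**Figure D2:**
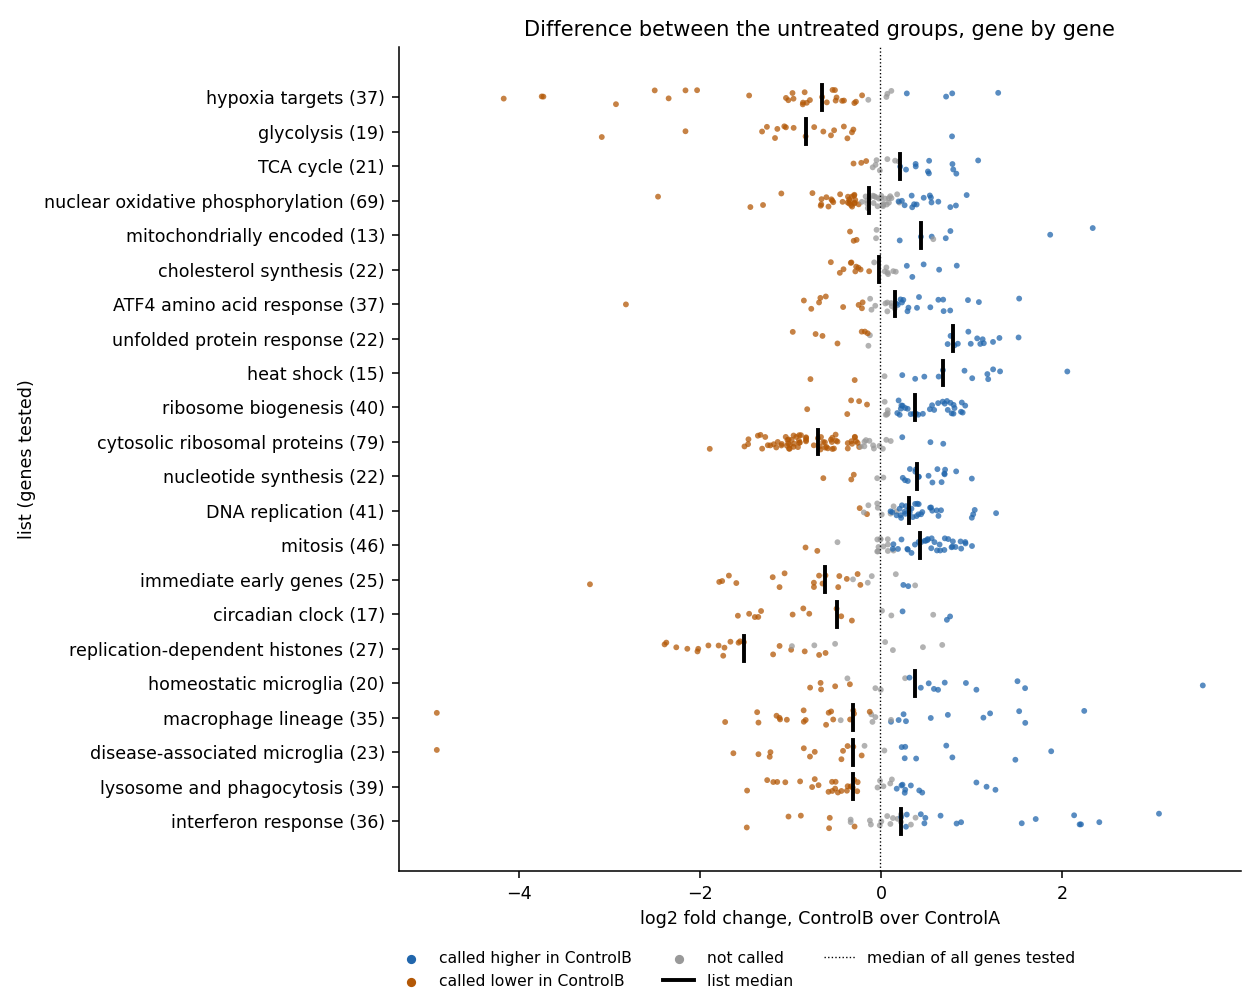
Log2 fold change of ControlB over ControlA for every tested gene of 22 lists, 1 point a gene, coloured where the gene passed the test, with a black bar at the list median, a dotted line at the median of all genes tested and the number of genes tested in brackets. Glycolysis, ribosomal protein and histone genes lie mostly to the left, and DNA replication, mitosis, ribosome biogenesis and heat shock genes mostly to the right.

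Lineage genes differed gene by gene rather than together. Of 35 macrophage genes, 11 were called higher and 19 lower in ControlB, and the median log2 fold change was -0.31. *Csf1r* (-0.06 ± 0.04) and *Runx1* (-0.11 ± 0.11) did not pass the test, and *Spi1* was slightly lower (-0.34 ± 0.06). *Cebpa* and *Cebpb*, transcription factors of myeloid differentiation, were higher: *Cebpb* had 35.3, 39.6 and 40.1 CPM in ControlA and 107, 106 and 118 CPM in ControlB (log2 fold change 1.52 ± 0.07, adjusted p = 9.32e-07) and *Cebpa* had 64.8, 72.3 and 65.9 CPM in ControlA and 148, 147 and 148 CPM in ControlB (log2 fold change 1.13 ± 0.05, adjusted p = 1.12e-06). *Mrc1*, the mannose receptor CD206, had 47.2, 46.3 and 50.5 CPM in ControlA and 225, 227 and 229 CPM in ControlB (log2 fold change 2.24 ± 0.05, adjusted p = 7.28e-08), and every ControlB sample lay far above every ControlA sample. *Lyz2* was higher too (0.74 ± 0.13).

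Lower in ControlB were *Itgam*, the integrin CD11b, with 186, 174 and 194 CPM in ControlA and 83.3, 81.6 and 83.8 CPM in ControlB (log2 fold change -1.15 ± 0.05, adjusted p = 1.05e-06), *Tyrobp*, the adaptor DAP12, with 639, 745 and 562 CPM in ControlA and 251, 246 and 264 CPM in ControlB (log2 fold change -1.35 ± 0.10, adjusted p = 7.48e-06), and *Csf2rb*, the shared receptor chain for GM-CSF, IL-3 and IL-5 (-1.37 ± 0.06). *Cd68* was lower as well (-0.58 ± 0.05). *Trem2*, the lipid receptor that signals through DAP12, was called lower (log2 fold change -4.90 ± 1.48, adjusted p = 0.0177), yet its counts were 2578, 112 and 62 in ControlA and 52, 50 and 35 in ControlB, so its value rested on ControlA replicate 1. Without that replicate its log2 fold change was -1.41, and the call was lost when any ControlB replicate was left out.

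Of 20 homeostatic microglia genes tested, 11 were called higher and 5 lower in ControlB, and the median log2 fold change was 0.38. *Mertk*, a receptor for the uptake of dead cells, had 45.2, 41.9 and 55.1 CPM in ControlA and 97.2, 97.8 and 99.6 CPM in ControlB (log2 fold change 1.05 ± 0.09, adjusted p = 2.29e-05), and the complement genes *C1qb* (0.94 ± 0.11) and *C1qc* (0.58 ± 0.11) were higher. *Tmem119* was higher (1.59 ± 0.09) at a low level, and *Olfml3* higher (3.55 ± 0.52) at a level of 0.477 CPM in ControlB. *Cst3* (-0.66 ± 0.10), *Mef2c* (-0.67 ± 0.07) and *Selplg* (-0.78 ± 0.05) were lower. The list's summed CPM was 2635 to 2939 CPM in ControlA and 2347 to 2442 CPM in ControlB, lower in ControlB while the median was above 0, with the abundant *Cst3* among the lower genes.

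**Figure D3:**
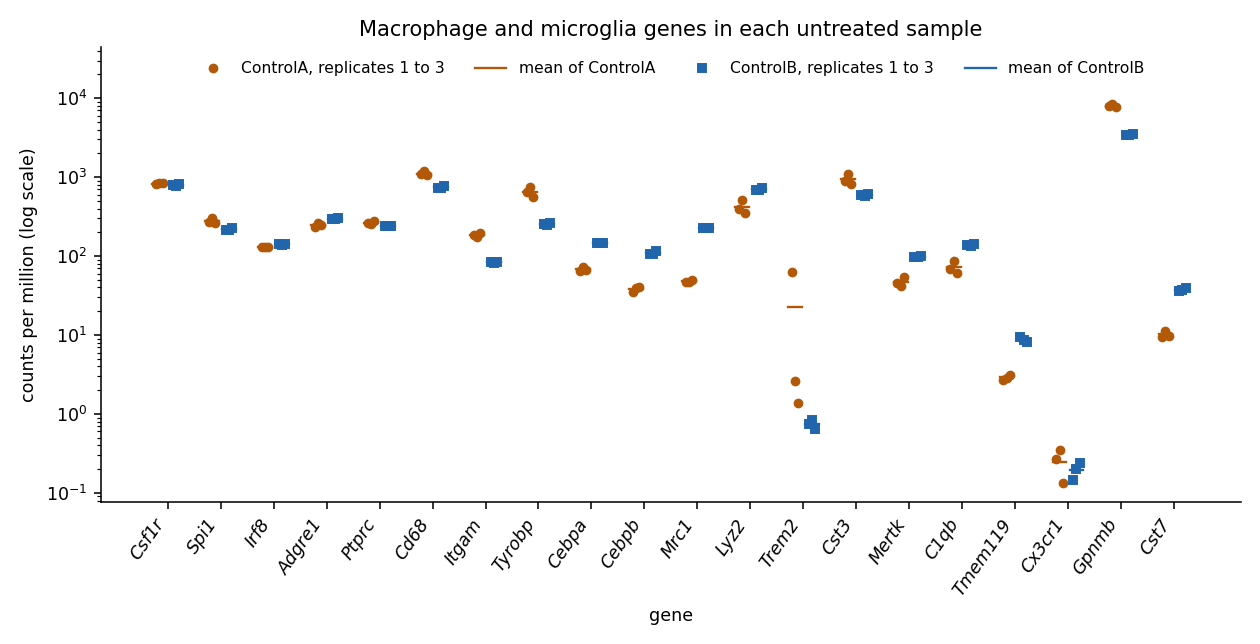
CPM on a log scale for 20 macrophage and microglia genes in each untreated sample, with circles for ControlA, squares for ControlB and a line at each group mean. *Csf1r* lies close in both groups, *Cebpb*, *Mrc1* and *Cst7* lie higher in ControlB, *Itgam*, *Tyrobp* and *Gpnmb* lower, and *Trem2* has a single high ControlA sample.

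Of 23 genes of disease-associated microglia, 8 were called higher and 13 lower in ControlB, and the median log2 fold change was -0.31. *Gpnmb* had 7903, 8445 and 7826 CPM in ControlA and 3441, 3398 and 3531 CPM in ControlB (log2 fold change -1.22 ± 0.05, adjusted p = 5.95e-07), *Lgals3*, galectin 3, was lower (-1.63 ± 0.10) and *Spp1* was lower (-0.42 ± 0.09). *Cst7*, cystatin F, had 9.54, 11.3 and 9.79 CPM in ControlA and 36.3, 37.1 and 39.0 CPM in ControlB (log2 fold change 1.88 ± 0.07, adjusted p = 4.95e-07), and *Igf1* was higher (1.48 ± 0.04). Of 39 lysosome and phagocytosis genes, 11 were called higher and 23 lower in ControlB, and the median log2 fold change was -0.31, with *Ctsa* (-1.15 ± 0.07), *Ctsk* (-1.06 ± 0.07), *Ctsl* (-0.73 ± 0.08) and *Tfeb*, the regulator of lysosome genes (-0.54 ± 0.05), lower and *Ctsc* (1.16 ± 0.06) higher. Of 15 iron and metal handling genes, 10 were called higher and 3 lower in ControlB, and the median log2 fold change was 0.33. The iron exporter *Slc40a1* (1.24 ± 0.06) and the transferrin receptor *Tfrc* (0.74 ± 0.04) were higher. The metallothioneins *Mt1* (-1.29 ± 0.08) and *Mt2* (-1.43 ± 0.09) were lower. Of the abundant ferritin chains, *Ftl1* was lower (-0.60 ± 0.11) and *Fth1* higher (0.23 ± 0.08). The list's summed level did not rise, at 11918 to 15143 CPM in ControlA and 11887 to 12392 CPM in ControlB.

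The inflammatory genes *Tnf*, *Il1b* and *Nos2* were low in both groups, though the cytokine list as a whole was not. *Tnf* had at most 0.0737 CPM in any sample, which is near the floor and not read as absence. *Il1b* stood at 1.07 ± 0.0799 CPM in ControlA and 2.04 ± 0.554 CPM in ControlB, and *Nos2* at 0.611 ± 0.0923 CPM in ControlA and 0.174 ± 0.0217 CPM in ControlB. Of the 36 genes listed as cytokines, chemokines and NF-kB, 14 had a mean of at least 10 CPM in either group. Their summed level was 650 to 717 CPM in ControlA and 549 to 615 CPM in ControlB. The cytokine list held 5 higher and 8 lower genes of 23, with the chemokines *Ccl9* (-1.70 ± 0.10) and *Ccl3* (-1.18 ± 0.10) lower. Interferon genes leaned up, with 16 higher and 6 lower of 36 and a median of 0.22. *Trim30a*, an interferon-induced ubiquitin ligase, had 12.3, 10.1 and 12.4 CPM in ControlA and 102, 89.4 and 99.9 CPM in ControlB (log2 fold change 3.07 ± 0.09, adjusted p = 2.36e-07), and *Ifit2* had 10.0, 9.14 and 9.34 CPM in ControlA and 26.9, 26.7 and 29.8 CPM in ControlB (log2 fold change 1.55 ± 0.07, adjusted p = 8.86e-07). *Irf7* (0.22 ± 0.20) did not pass the test, and *Samd9l* was lower (-1.48 ± 0.18). Of the 22 antigen presentation genes only 8 could be tested, and *Cd74*, the class II invariant chain, was lower (-1.01 ± 0.08).

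Most genes that answer recent stimulation, and most genes of the circadian clock, were lower in ControlB. Of 25 immediate early genes, 2 were called higher and 18 lower in ControlB, and the median log2 fold change was -0.61, or -0.38 with length and GC content subtracted. *Ier3*, an early gene of growth and stress signals, had 60.00, 58.3 and 48.9 CPM in ControlA and 5.68, 5.38 and 7.03 CPM in ControlB (log2 fold change -3.21 ± 0.12, adjusted p = 4.40e-07), *Fos* had 25.9, 32.9 and 29.7 CPM in ControlA and 12.6, 12.96 and 15.2 CPM in ControlB (log2 fold change -1.12 ± 0.10, adjusted p = 3.08e-05) and *Zfp36* was lower (-1.20 ± 0.05), while *Jun* was slightly higher (0.24 ± 0.05). Of 17 clock genes, 3 were called higher and 11 lower in ControlB, and the median log2 fold change was -0.49. *Per1* had 74.1, 59.9 and 73.5 CPM in ControlA and 26.6, 26.9 and 27.6 CPM in ControlB (log2 fold change -1.36 ± 0.08, adjusted p = 3.78e-06), *Dbp* (-1.58 ± 0.11) and *Nr1d1* (-0.86 ± 0.10) were lower, and *Clock* was higher (0.76 ± 0.08).

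Genes of the cytoskeleton and of adhesion held several large falls. *Vim*, vimentin, had 1127, 1382 and 1098 CPM in ControlA and 316, 311 and 336 CPM in ControlB (log2 fold change -1.91 ± 0.09, adjusted p = 1.31e-06), *Vcl*, vinculin, had 141, 134 and 146 CPM in ControlA and 38.2, 39.0 and 38.2 CPM in ControlB (log2 fold change -1.87 ± 0.05, adjusted p = 1.34e-07), and *Zyx* (-1.40 ± 0.04) and *Actg1* (-1.23 ± 0.05) were lower. *Plau*, the urokinase that activates plasminogen, had 201, 262 and 210.2 CPM in ControlA and 44.4, 41.4 and 48.4 CPM in ControlB (log2 fold change -2.33 ± 0.11, adjusted p = 1.18e-06), and its receptor *Plaur* (-2.06 ± 0.09) was lower with it. *Itgb7*, an integrin chain of leukocytes, was lower too (-4.40 ± 0.13). Of 15 actin genes tested, 3 were higher and 8 lower, of 24 matrix and adhesion genes 8 and 11, and of 32 growth factor genes 7 and 14. More than 2-fold differences went both ways, with 1 actin gene higher and 4 lower, and 3 matrix and adhesion genes higher and 6 lower. The matrix and adhesion median was -0.22, or -0.03 with length and GC content subtracted.

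Genes often taken as constant references differed as well. Of 15 housekeeping genes tested, 2 were called higher and 8 lower in ControlB, and the median log2 fold change was -0.47, or -0.25 with length and GC content subtracted. *Actb*, cytoplasmic actin, had 3089, 3457 and 2999 CPM in ControlA and 2317, 2268 and 2295 CPM in ControlB (log2 fold change -0.47 ± 0.06, adjusted p = 0.000183), *Ppia*, cyclophilin A, had 1503, 1803 and 1377 CPM in ControlA and 705, 695 and 713 CPM in ControlB (log2 fold change -1.15 ± 0.09, adjusted p = 1.41e-05), and *Tubb5*, a tubulin, was lower (-0.90 ± 0.06).

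Most of the largest differences among genes with a mean of at least 10 CPM in either group lay outside these lists. Lower in ControlB, *Arg1*, arginase 1, at chr10:24915221-24927484 on the minus strand (build GRCm38, as are the other positions), had 41.8, 42.8 and 36.9 CPM in ControlA and 0.478, 0.448 and 0.219 CPM in ControlB (log2 fold change -6.69 ± 0.16, adjusted p = 1.00e-07). *Uchl1*, a deubiquitinase at chr5:66676091-66687234 on the plus strand, had 118, 136 and 109.8 CPM in ControlA and 2.52, 3.32 and 2.87 CPM in ControlB (log2 fold change -5.39 ± 0.12, adjusted p = 7.69e-08), and *Sspn*, sarcospan, had 48.5, 52.7 and 50.7 CPM in ControlA and 1.13, 1.31 and 1.48 CPM in ControlB (log2 fold change -5.28 ± 0.09, adjusted p = 2.75e-08). *Lims2*, a focal adhesion adaptor, had 10.52, 10.6 and 10.3 CPM in ControlA and 0.0435, 0.0498 and 0.146 CPM in ControlB (log2 fold change -7.06 ± 0.23, adjusted p = 3.07e-07), with 3, 3 and 8 counts in ControlB. *Myo7b* (-6.10 ± 0.14), *Sel1l3* (-5.68 ± 0.11) and *Sptbn1* (-5.37 ± 0.20) were lower by similar amounts. *Lims2* (chr18:31922290-31958619, plus strand) and *Myo7b* (chr18:31959234-32036961, minus strand) lie close together.

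Some lower genes were chosen after their values were seen because they stand together in function. The calcium-binding *S100a4* had 258, 266 and 226 CPM in ControlA and 13.7, 12.7 and 13.2 CPM in ControlB (log2 fold change -4.24 ± 0.08, adjusted p = 4.28e-08), and *S100a11* (-2.98 ± 0.08) and the annexin *Anxa2* (-2.90 ± 0.09) were lower too. *Dcstamp* (-3.47 ± 0.11) and *Ocstamp* (-3.55 ± 0.07), membrane proteins needed for macrophages and osteoclasts to fuse, were lower, while *Acp5*, the acid phosphatase that marks osteoclasts, had 1.30, 1.73 and 1.15 CPM in ControlA and 13.3, 13.5 and 12.9 CPM in ControlB (log2 fold change 3.25 ± 0.13, adjusted p = 6.03e-07).

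Higher in ControlB, *C3*, the central complement component at chr17:57203970-57228136 on the minus strand, had 7.62, 7.06 and 7.02 CPM in ControlA and 68.0, 67.9 and 66.8 CPM in ControlB (log2 fold change 3.22 ± 0.05, adjusted p = 2.75e-08). *Mlana*, best known as a melanocyte antigen, had 0.762, 0.761 and 0.863 CPM in ControlA and 16.2, 17.8 and 17.8 CPM in ControlB (log2 fold change 4.43 ± 0.10, adjusted p = 7.28e-08), and *Enpep*, an aminopeptidase, was higher by 3.30 ± 0.13. The predicted gene *Gm41912* had 3.69, 3.62 and 3.28 CPM in ControlA and 274, 255 and 272 CPM in ControlB (log2 fold change 6.24 ± 0.07, adjusted p = 4.23e-09). Its position was not given by the annotation used here.

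Ribosomal and histone transcripts with a short poly(A) tail or none, and nuclear noncoding RNAs, also differed between the groups, and not in 1 direction. *mt-Rnr2*, the large mitochondrial ribosomal RNA, had 230.3, 270.3 and 236 CPM in ControlA and 2705, 2718 and 2827 CPM in ControlB (log2 fold change 3.49 ± 0.07, adjusted p = 6.77e-08), and the small one, *mt-Rnr1*, had 149, 177 and 144 CPM in ControlA and 693, 703 and 726 CPM in ControlB (log2 fold change 2.17 ± 0.08, adjusted p = 4.85e-07). *Rpph1*, the RNA of ribonuclease P, had 7.30, 8.14 and 4.69 CPM in ControlA and 59.4, 53.8 and 60.3 CPM in ControlB (log2 fold change 3.11 ± 0.16, adjusted p = 1.82e-06). Of 27 replication-dependent histone genes tested, 0 were called higher and 20 lower in ControlB (edgeR), and the median log2 fold change was -1.51, against higher replication genes in the same samples. Most of these histone genes were of low level: 22 of the 49 listed could not be tested, and 3 had a mean of at least 10 CPM in either group. With length and GC content subtracted their median was -1.10. *Hist1h1c* had 97.7, 98.6 and 82.7 CPM in ControlA and 17.96, 19.1 and 21.3 CPM in ControlB (log2 fold change -2.26 ± 0.09, adjusted p = 6.03e-07). *Neat1*, a nuclear noncoding RNA, had 569, 535 and 574 CPM in ControlA and 180.1, 154 and 152 CPM in ControlB (log2 fold change -1.79 ± 0.07, adjusted p = 7.10e-07), whereas *Malat1* (-0.34 ± 0.16) did not pass the test. The part of these RNA classes in the other differences was not tested.

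The difference between the groups moved with the composition of the gene. Over 13227 genes with a known exon length, Spearman's rho of the log2 fold change was -0.27 with GC content and 0.14 with length, as a description across genes that share their libraries. The median fell from 0.32 among genes in the lowest of 10 bins of GC content to -0.29 in the highest, and rose from -0.22 in the shortest of 10 bins of exon length to 0.15 in the longest. Subtracting the median of genes of like length and GC content left list medians of 0.66 for the unfolded protein response, 0.31 for mitosis, 0.30 for replication and -0.24 for the macrophage list, while the LXR, fatty acid oxidation and cytokine lists, with medians near 0, changed sign. The part of composition in the values of single genes was not tested.

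Among the autosomes, chromosome 18 had the median farthest from 0. The 315 genes of chromosome 18 had a median log2 fold change of 0.38, with 60.6% higher and 14.6% lower, while the medians of the other autosomes lay between -0.11 and 0.11. For each sample, the median deviation of genes from their mean over the 6 samples was taken, and that of the other autosomes was subtracted. It was -0.17, -0.17 and -0.15 in ControlA and 0.17, 0.19 and 0.16 in ControlB, so the samples of each group were alike. The median log2 fold change of chromosome 18 was 0.24 with length and GC content subtracted, and that of chromosome 13 was then -0.21. The 15 genes of the mitochondrial genome, ribosomal RNAs included, had a median of 0.56.

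**Figure D4:**
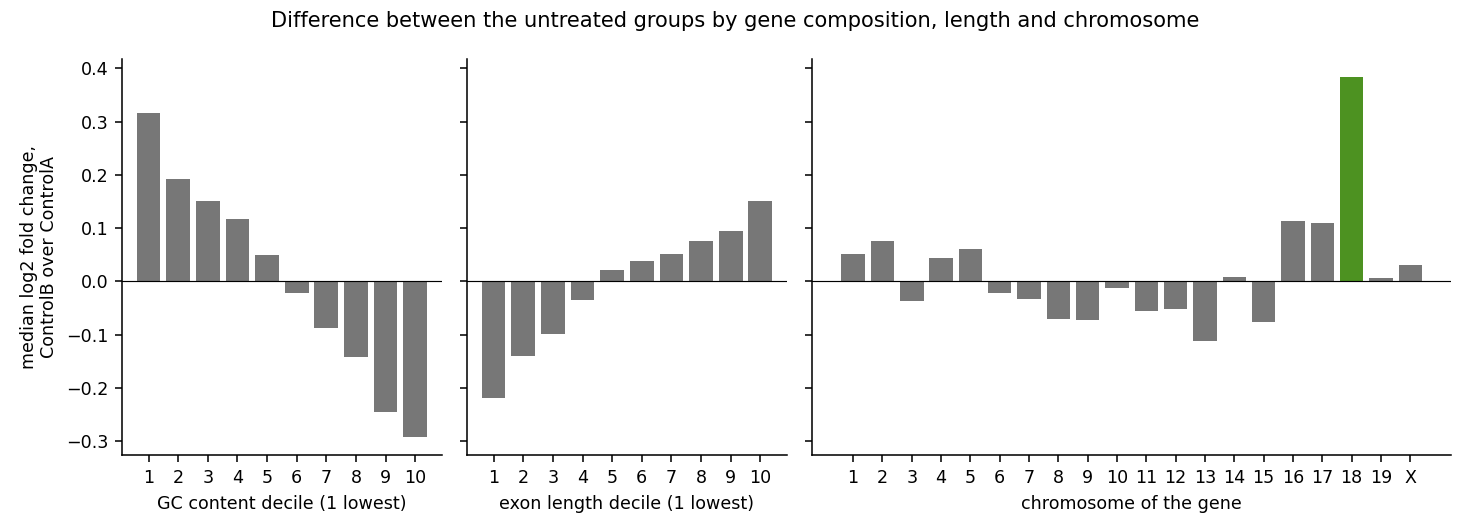
Bars give the median log2 fold change of ControlB over ControlA for 10 bins of genes by GC content (left), by exon length (middle) and for each chromosome (right), with chromosome 18 in green. Medians fall from 0.32 to -0.29 along GC content and rise from -0.22 to 0.15 along length, and chromosome 18 lies at 0.38.

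The 5 treated samples, which were not used above, are given beside these differences. In them, 2 samples given the nApoE3 fragment beside ControlB were set against 3 given the nApoE4 fragment beside ControlA, and fragment and experiment cannot be told apart. Of the 2355 genes called with over 2-fold difference that had a treated value, 2242 (95.2%) had the same sign. Chromosome 18 had a median of 0.35 there, the unfolded protein response 0.78, ribosomal proteins -0.62 and mitosis 0.58. The hypoxia list stood at -0.21 and glycolysis at -0.09, nearer to 0 than in the untreated cells. *Ankrd37* (1.70), *Slc2a1* (0.80), *Hilpda* (0.51) and *Ier3* (1.01) had the opposite sign in the treated samples, while *Arg1* (-5.93), *Mrc1* (2.22) and *C3* (3.13) kept theirs. The difference between the treated and untreated values was not tested.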

How the data were processed

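Total RNA was sequenced, and counts of reads on genes were deposited by the authors for each sample, made per the submitters' processing notes with Trim Galore 0.5.0, FastQC 0.11.8, HISAT2 2.1.0 and HTSeq 0.11.0 on GRCm38.p6 from 75-base reads. The annotation release and strand setting are not given in the sources used here, so genes that overlap or have near-identical copies are uncertain. Rows that name no gene were left out, and 76.0 to 77.7% of tallied reads lay on genes. ControlB was compared with ControlA with edgeR 4.0.16 (R 4.3.3): filterByExpr, TMM factors and the quasi-likelihood test over all genes that passed, called at a Benjamini-Hochberg adjusted p under 0.05. The code was tested on simulated data. CPM of genes used the counts on the genes tested, multiplied by the TMM factor of each sample. The floor was 3 counts, put into CPM by total counts on genes, and covers counting error only. Exon lengths, GC content and positions came from GENCODE, and promoters and motifs from RefSeq by symbol. Named were the 10 largest rises and falls at a mean of 10 CPM or more without overlap, up to 6 called members of each list with the largest change plus its regulators, and the 20 highest levels per kilobase. The members and lists were chosen with earlier results of these data known. Alternatives were DESeq2 1.42.0, other scalings and filters, a test against a fold of 1.5, thinning, the replicate block, all 11 samples in 1 fit, each sample left out, and subtraction of medians by length and GC content. Offsets for length and GC content in the fit were added after seeing the data. No columns of the authors' own comparisons were in the files. Some genes that this rule names are not reported here.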

Additional observations from a re-analysis of the deposited data

How the results depend on the processing

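Calls numbered 9879 and were 8949 to 10988 with 1 sample left out, the most without ControlA replicate 2, with 4505 to 5466 higher and 4444 to 5522 lower. DESeq2 called 9889. A test against a fold of 1.5 called 3423 genes, 1315 higher and 2108 lower. Genes over 2-fold higher numbered 770 and became 1308 with 1 count over the 6 samples enough and 451 with 10 counts asked of every sample, which changes the genes tested. With the replicate number as a block 9376 genes were called. Samples with the same number did not deviate together (correlations 0.00125, -0.0434 and -0.0505), so the numbers were taken as names.

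The list medians printed in this paragraph kept their sign under each scaling, while the NRF2, LXR, fatty acid oxidation and antigen presentation lists, with medians near 0, changed sign with upper quartile factors. Upper quartile factors, which moved the median of all genes to -0.11, gave -0.75 for hypoxia targets, -0.94 for glycolysis, 0.11 for the TCA cycle, 0.27 for ribosome biogenesis, 0.20 for DNA replication, 0.32 for mitosis, 0.27 for homeostatic microglia and -0.41 for the macrophage list. Total counts gave 0.33 for ribosome biogenesis and 0.33 for homeostatic microglia. Offsets for length and GC content gave -0.62 for glycolysis, 0.66 for the unfolded protein response, 0.29 for mitosis, 0.50 for homeostatic microglia and -0.23 for the macrophage list, and subtracted medians -0.63, 0.66, 0.31, 0.51 and -0.24. With 1 sample left out the TCA cycle lay at 0.19 to 0.30, the highest without ControlA replicate 2, and homeostatic microglia at 0.35 to 0.43. With 1 count enough, homeostatic microglia stood at 0.32, while matrix and adhesion turned from -0.22 to 0.11 and fibroblast and endothelial markers from -0.70 to 0.57. With offsets for length and GC content *Rpl8* turned to 0.14, *Rps15* to 0.18, *Fasn* (-0.05) to 0.23 and *Atf4* (-0.25) to 0.065. Of 328 genes tested against the alternatives, 24 lost their call and 14 gained one under at least 1 setting other than a sample left out. The cause of these shifts was not tested. Precision was limited by 3 samples a group and the spread within ControlA.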

Other observations

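Growth factor genes not described above held some large differences. *Igf2r*, the receptor that clears insulin-like growth factor 2 and carries lysosomal enzymes, had 97.3, 76.4 and 99.4 CPM in ControlA and 43.5, 39.8 and 40.4 CPM in ControlB (log2 fold change -1.14 ± 0.10, adjusted p = 2.15e-05 by edgeR). *Pdgfb*, a growth factor chain, was lower in ControlB (-0.95 ± 0.05), as were *Etv5*, a transcription factor downstream of receptor kinases (-0.98 ± 0.05), and *Pik3ip1*, an inhibitor of PI3 kinase (-1.04 ± 0.07). *Igf1r* did not pass the test (0.12 ± 0.09). The clock genes *Per2* (-1.32 ± 0.15), *Tef* (-0.98 ± 0.05) and *Rora* (-1.46 ± 0.11) were lower and so was their activator *Arntl* (-0.32 ± 0.08). Of 9 noncoding RNAs tested, *Rpph1* and *Neat1* included, 3 were higher and 3 lower. The marker lists of other cells left few genes to test: 4 of oligodendrocytes (1 higher, 2 lower), 5 of fibroblasts and endothelium (1 and 3), 3 of astrocytes (1 and 1), 2 of neutrophils and mast cells (0 and 1 by edgeR) and 1 of neurons (lower).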
